A study of Mus musculus with 35 samples.

Results

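The enzymes that build, interconvert and salvage nucleotides were followed at the RNA level in CD8+ cytotoxic T lymphocytes (CTLs) kept at neutral or acidic pH. The members were 36 mouse genes listed by symbol for their place in nucleotide metabolism, with earlier results of these data known. Of these, 35 were matched to a row among the 48709 genes of the count tables. The RNA of the listed gene Pnp was not analysed here. All 35 matched members passed the filter on low counts, although Nme2 and Ampd3 had at most 15 and 14 reads in any library, so that their calls are weak wherever the counts below include them.

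RNA was sequenced from OT-I CTLs, which are mouse CD8+ T cells with one transgenic T-cell receptor for a peptide of ovalbumin. The CTLs had been made in vitro from spleen CD8+ T cells by priming through CD3 and CD28 with antibodies and expansion in IL-2, the cytokine that drives their growth. There were 35 libraries in 7 groups of 5 replicates. The first group was taken untreated at the start, at 0 h. The other groups were cultured for 24 h in low-glucose DMEM at pH 7.4, pH 7 or pH 6.6, either without IL-2 or with 200 IU/mL murine IL-2, and the medium was acidified with HCl. Dead cells were removed on Ficoll before extraction in all groups, so the values describe surviving cells.

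Between 16721319 and 34033340 reads per library were assigned to genes, with a median of 24730020. Cd8a, a defining CD8 T-cell gene, was at 674 to 1596 CPM, while the B-cell genes Ms4a1 and Pax5 were at 0 in all 35 libraries. CPM are reads scaled to the library total after adjustment by the TMM method, and levels of different genes were compared only per kilobase of exon, as RPKM. A member was said to rise or fall where edgeR's quasi-likelihood test gave a Benjamini-Hochberg adjusted p under 0.05 over all 13819 genes tested. Log2 fold changes are given ± SE. Whether groups overlapped is stated for single named members, and the share of all genes tested without overlap was not computed. In bulk RNA, fewer cells of a type and less RNA per cell cannot be told apart, and CPM do not show the amount of RNA per cell.

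De novo pathways assemble the purine ring on phosphoribosyl pyrophosphate (PRPP) and the pyrimidine ring from carbamoyl phosphate and aspartate, whereas salvage pathways rephosphorylate bases and nucleosides. Kinases then raise monophosphates to the triphosphates used for RNA and DNA, and degrading enzymes keep the deoxynucleotide pool small in cells that do not divide. Activated T cells are known to induce de novo synthesis when they enter the cell cycle, and IL-2, mTORC1 and c-Myc are among the signals that control it.

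With IL-2, pH 6.6 went with lower RNA of nearly the whole de novo set. Against pH 7.4 with IL-2, 27 of the 35 members fell, Nme2 among them, 7 rose and 1, Ampd3, did not pass the test, with a median log2 fold change of -1.04. Among all genes tested, 76.3% passed the threshold in this comparison, 35.4% higher and 40.9% lower, and their median was -0.07. The log2 fold change was below -1 for 18 members and above 1 for 2, and the share of all genes tested past these sizes was not computed. The plot of all members by library shows most de novo rows high only in the groups with IL-2 at pH 7.4 and pH 7 and, to a lesser degree, at 0 h.

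**Figure D1:**
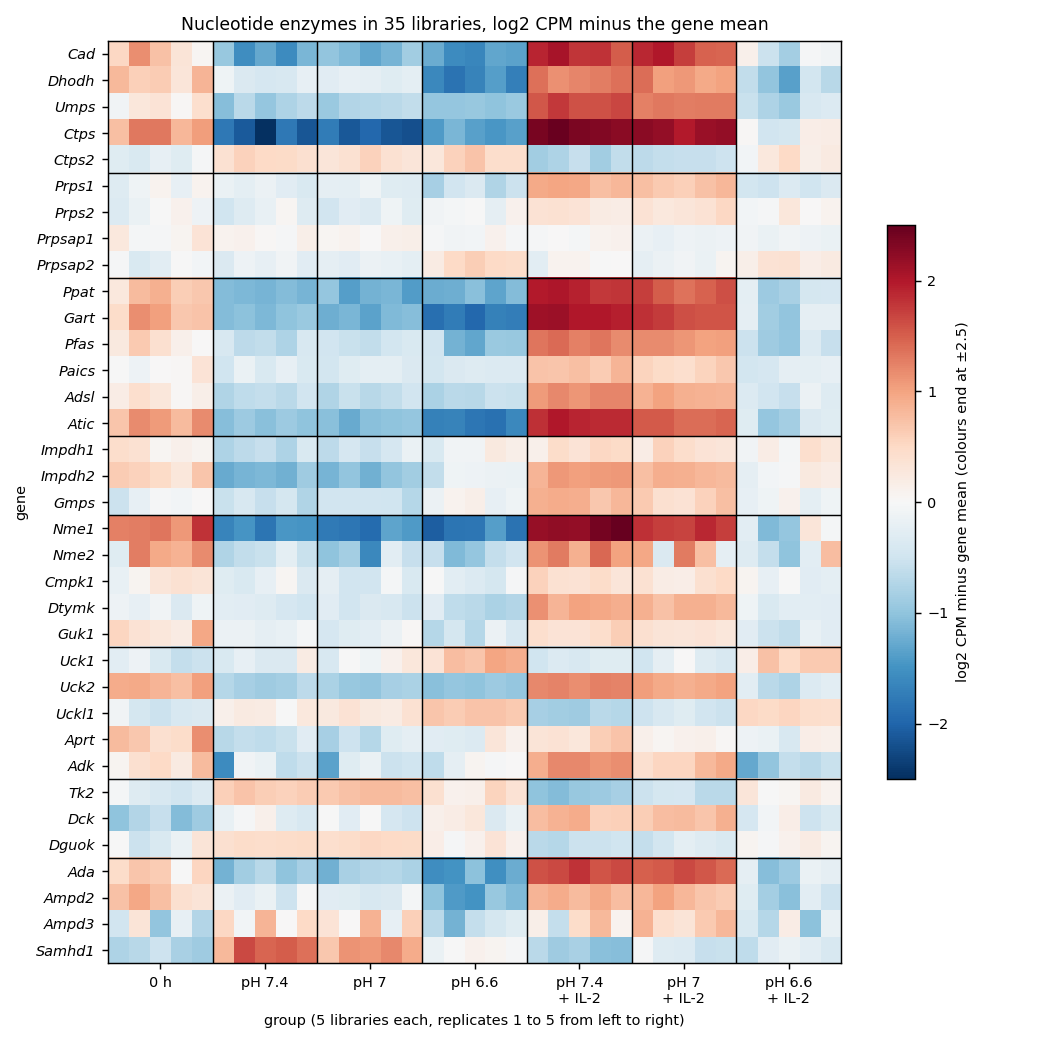
Each row is 1 of the 35 members, ordered by role, and each column is 1 of the 35 libraries; the colour gives log2 CPM minus the mean of that gene over all libraries, ending at ±2.5. Rows such as Cad, Ppat, Gart, Atic and Nme1 are red at pH 7.4 and pH 7 with IL-2 and pale or blue at pH 6.6 with IL-2, and Tk2 and Dguok are bluest at pH 7.4 with IL-2.

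All 6 enzymes from PRPP to IMP, the first purine nucleotide, fell at pH 6.6 with IL-2, with a median of -2.19. Ppat, which commits PRPP to the purine pathway, was at 152, 156, 147, 131 and 133 CPM in the 5 libraries at pH 7.4 with IL-2. At pH 6.6 with IL-2 it was at 32.6, 20.4, 21.8, 28.5 and 28.8 CPM, so that the highest acidic library lay far below the lowest neutral one. The log2 fold change was -2.45 ± 0.11 (edgeR adjusted p = 5.84e-19).

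Gart, a multifunctional enzyme of the middle steps, was at 273, 277, 253, 251 and 242 CPM at pH 7.4 and at 53.6, 34.5, 31.6, 53.8 and 54.1 CPM at pH 6.6. Again the groups did not overlap, and the log2 fold change was -2.52 ± 0.12 (edgeR adjusted p = 3.34e-18). Of Gart's exon bases, 19.7% lie under the antisense gene Gm15964, and the strand setting of the counting is not stated, so reads of that part cannot be assigned with certainty. Atic, which closes the purine ring, fell by 2.44 from 186 ± 9.17 (SD, n = 5) to 34.6 ± 7.41 CPM. The falls of Pfas and Adsl, which act in the middle of the pathway and in its late steps, were -1.95 ± 0.12 and -1.54 ± 0.073. Paics, another enzyme of the middle steps, fell least of the 6, by 1.04, from 379 ± 21.4 to 185 ± 14.7 CPM.

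Paics was also the member with the highest RNA per length in the neutral cells with IL-2, at 120.9 ± 6.81 RPKM (SD, n = 5). Cmpk1, the UMP-CMP kinase, followed at 58.6 ± 4.26 RPKM, Aprt, which salvages adenine, at 55.9 ± 7.52 and Prps1 at 53.7 ± 3.68, and these last 3 overlapped within 1 SD. Nme2 and Ampd3 aside, Adk stood at the low end, at 4.06 ± 0.320 RPKM. Paics and Ppat are neighbours on opposite strands that share exon bases, 8.67% of those of Paics and 6.15% of those of Ppat.

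The pyrimidine pathway followed the purine pathway, with 4 of 5 members lower and a median of -2.09. Cad, which carries out the first steps, was at 328, 364, 299, 306 and 249 CPM at pH 7.4 with IL-2 and at 95.4, 59.7, 48.6, 85.4 and 81.5 CPM at pH 6.6 with IL-2, without overlap, and fell by 2.06. Dhodh, the mitochondrial enzyme that makes orotate, was at 32.8, 27.9, 29.4, 30.7 and 32.5 CPM and then at 8.204, 6.32, 4.82, 9.09 and 7.75 CPM, a change of -2.09 ± 0.11 (edgeR adjusted p = 2.69e-17). Umps, which turns orotate into UMP, changed by -2.23 ± 0.088 (edgeR adjusted p = 1.85e-20), the lowest adjusted p among the members in this comparison.

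CTP synthases make the last pyrimidine nucleotide, CTP, from UTP, and the mouse has a pair of them. Ctps was at 116, 124, 114, 111 and 107 CPM at pH 7.4 with IL-2 and at 22.6, 15.95, 16.3, 25.1 and 25.2 CPM at pH 6.6 with IL-2, a log2 fold change of -2.45 ± 0.13 (edgeR adjusted p = 3.44e-17). Ctps2 moved the opposite way, from 53.5, 57.1, 64.8, 53.4 and 63.00 CPM to 92.4, 116, 137, 108 and 114 CPM, a change of 0.96 ± 0.069 (edgeR adjusted p = 4.18e-14). In neither gene did the groups overlap. In neutral cells with IL-2, Ctps was the more abundant per length, at 34.5 ± 1.96 RPKM against 12.4 ± 1.12 RPKM for Ctps2.

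In the step from IMP to GMP, all 3 members fell, but not to the same degree. Impdh2, one of the isoforms of the rate-limiting IMP dehydrogenase, was at 84.7, 99.4, 95.3, 98.3 and 99.7 CPM and then at 39.9, 44.8, 45.97, 55.3 and 53.6 CPM, which is a change of -1.0 ± 0.082 (edgeR adjusted p = 9.68e-13). The other isoform, Impdh1, was at 146, 185, 170.0, 193 and 187 CPM and then at 126, 152, 129.7, 181 and 164 CPM, with overlapping groups and a change of -0.23 ± 0.10 (edgeR adjusted p = 0.0363). Only 60.7% of the 50-base windows of Impdh2 occur in no other gene, so that part of its reads may have been discarded as aligned to several places. Gmps, which completes GMP, fell by 0.96.

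Among the enzymes that supply PRPP the changes were small except for Prps1. Prps1, a PRPP synthetase, was at 110.4, 114, 112, 96.4 and 103 CPM at pH 7.4 with IL-2 and at 41.9, 39.9, 45.3, 40.8 and 44.6 CPM at pH 6.6 with IL-2, a change of -1.33 ± 0.077. Its paralog Prps2 was at 146, 149, 145, 131 and 129 CPM and then at 109, 111, 138, 115 and 121 CPM, with overlap, and changed by -0.24 ± 0.084. Of the proteins that associate with these synthetases, Prpsap1 changed by -0.15 ± 0.063 and Prpsap2 by 0.28 ± 0.079. The calls for Impdh1, Prps2 and Prpsap1 were the 3 of 34 that did not hold in every alternative analysis. Without replicate 2, their log2 fold changes were -0.15, -0.12 and -0.07, and none of the 3 passed. With scaling by relative log expression in place of TMM, and with DESeq2, all 3 were also lost, at -0.17, -0.18 and -0.09. A stricter filter on low counts ended the calls for Impdh1 and Prpsap1, at -0.19 and -0.11. A looser filter and a fit of only the compared groups ended that for Prpsap1, at -0.17 and -0.08. The call for Prps2 was also lost without replicate 1, at -0.12, that for Impdh1 without replicates 1 and 3, at -0.17 and -0.20, and that for Prpsap1 without replicates 1, 4 and 5, at -0.11, -0.14 and -0.12.

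Of the kinases that raise nucleotides to di- and triphosphates, Nme1, Cmpk1, Dtymk and Guk1 fell, and Nme2 had too few reads to be counted with them. Nme1, a nucleoside diphosphate kinase, showed the largest fall of any member. It was at 94.1, 97.2, 95.7, 109 and 117 CPM at pH 7.4 with IL-2 and at 17.2, 9.63, 10.6, 25.5 and 20.1 CPM at pH 6.6 with IL-2, a 6.34-fold lower level on the fitted scale, or -2.67 ± 0.15 (edgeR adjusted p = 3.34e-17). The thymidylate kinase Dtymk fell by 1.24, the guanylate kinase Guk1 by 0.80 and Cmpk1 by 0.54.

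Nme2, the neighbour and paralog of Nme1, had 9 to 15 reads per library at pH 7.4 with IL-2 and 1 to 8 at pH 6.6 with IL-2, too few for a firm value, and passed the low-count filter only through the groups where it was high. Of its exon bases, 48.9% are shared with the readthrough gene Gm20390, which had 0 reads in every library, and reads that overlap both genes cannot be assigned to either. The fitted change of Nme2 was -1.73 ± 0.44.

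Salvage enzymes split. Of the 5 members for ribonucleosides and bases, Uck2, Aprt and Adk fell and Uck1 and Uckl1 rose. Uck2, the uridine-cytidine kinase that was the more abundant per length in neutral cells with IL-2, was at 269, 276, 261, 279 and 274 CPM at pH 7.4 with IL-2 and at 97.3, 72.8, 67.7, 91.6 and 97.2 CPM at pH 6.6 with IL-2, a change of -1.68 ± 0.069 (edgeR adjusted p = 4.23e-20). Uck1, its paralog, was at 31.6, 35.2, 33.9, 36.3 and 36.1 CPM and then at 49.98, 74.1, 63.2, 70.8 and 70.8 CPM, and rose by 0.92 (edgeR adjusted p = 6.01e-09). Neither gene's groups overlapped.

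Uckl1, a uridine-cytidine kinase-like gene, showed the largest rise of the members, from 35.8, 34.7, 34.6, 40.1 and 38.7 CPM to 91.2, 88.4, 92.1, 86.3 and 84.95 CPM, or 1.27 ± 0.074 (edgeR adjusted p = 1.61e-16). Adk, which phosphorylates adenosine, fell by 1.94, and Aprt fell by 0.54. For Uck1, 82.5% of the 50-base windows were unique to the gene.

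The mitochondrial deoxynucleoside kinases rose and the cytosolic one fell. Tk2, a mitochondrial thymidine kinase, was at 23.9, 22.7, 25.1, 25.8 and 27.1 CPM at pH 7.4 with IL-2 and at 59.7, 48.3, 50.3, 56.1 and 51.6 CPM at pH 6.6 with IL-2, and rose by 1.09 (edgeR adjusted p = 3.25e-13). Dguok, the mitochondrial deoxyguanosine kinase, rose by 0.67, from 30.4 ± 1.98 to 48.5 ± 2.83 CPM (SD, n = 5). Dck, the deoxycytidine kinase of the cytosol and nucleus, was at 162, 171, 179.8, 141 and 143 CPM and then at 70.5, 89.6, 105, 65.7 and 72.4 CPM, and fell by 0.99. The groups did not overlap for any of the 3.

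Of the enzymes that deaminate or degrade nucleotides, Ada, the adenosine deaminase, fell most, by 2.14, from 24.5, 25.4, 28.3, 24.04 and 25.5 CPM to 6.88, 3.80, 4.28, 7.20 and 6.91 CPM. Ampd2, an AMP deaminase, was at 104, 110.1, 101, 112 and 99.3 CPM and then at 46.7, 31.9, 27.98, 48.1 and 40.5 CPM, and fell by 1.44. Ampd3, its paralog, had 4 to 12 reads per library at pH 7.4 with IL-2 and 2 to 7 at pH 6.6 with IL-2, and at -0.81 ± 0.38 it was the 1 member that did not pass (edgeR adjusted p = 0.056), although it did without replicate 3, at -1.0. Samhd1, which breaks down deoxynucleoside triphosphates, was at 514, 441, 468, 394 and 389.8 CPM and then at 525, 672, 729.8, 679 and 620.4 CPM, and rose by 0.54 (edgeR adjusted p = 8.14e-05).

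**Figure D2:**
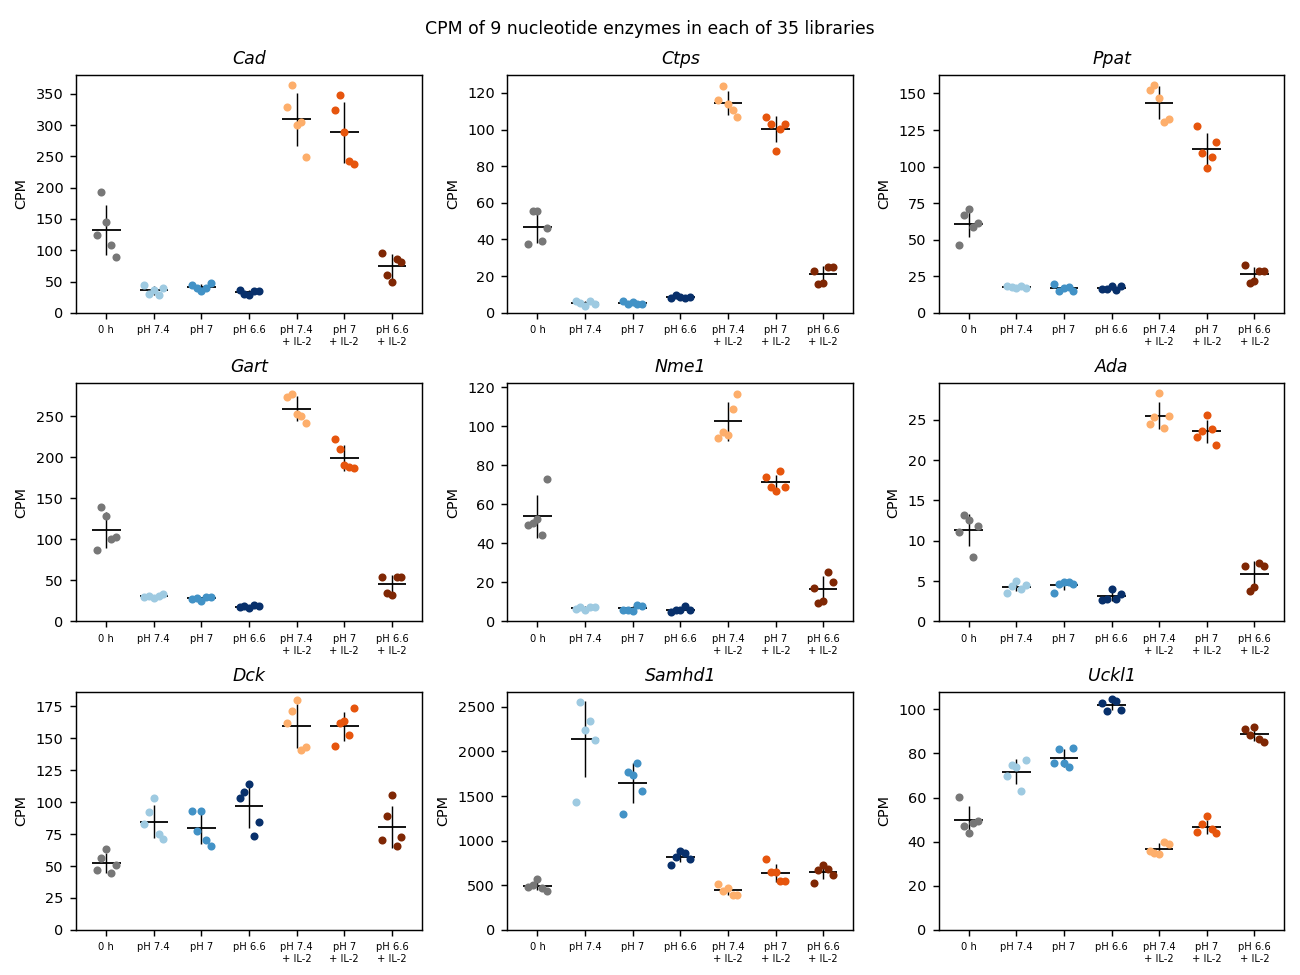
CPM (vertical axes, from 0) of 9 members in each of the 35 libraries, by group; points are libraries, horizontal bars are means and vertical bars ± SD (n = 5). Nme1 lies between 94.1 and 117 CPM at pH 7.4 with IL-2 and between 9.63 and 25.5 at pH 6.6 with IL-2, whereas Samhd1 reaches 1435 to 2557 CPM at pH 7.4 without IL-2.

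Because most members moved together, their promoters, from 250 bases before to 50 after each annotated RefSeq start (GRCm38.p6), were searched for CACGTG, the E-box letters bound by c-Myc and related factors. These letters read the same on both strands. A promoter was listed for 34 of the 36 genes, Pnp included, and 6 of them (17.6%) held the letters, against 2187 of 27025 genes (8.09%) in the whole table. That table also holds genes not tested here. Counted by window, since a gene can have several starts, the letters were in 7 of 48 (14.6%) and 2349 of 32851 (7.15%). Of the 27 members that fell, 25 had a listed promoter and 5 of these held the letters, and none of the 7 that rose did. The other gene with the letters was Ampd3. This split was not computed for all genes that fell or rose, and 7 genes are too few to read a difference from it. The 5 stretches are shown with 12 bases on each side, in the direction of the gene and with CACGTG in capitals, since they are the only such letters in the windows of members that fell, apart from a second start of Nme1.
Atic, chr1:71557137-71557166, plus strand, letters 7 bases before the start: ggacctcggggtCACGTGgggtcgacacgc
Dtymk, chr1:93802065-93802094, minus strand, letters 148 bases before the start: gtctcgaacttcCACGTGaccagagcctgc
Impdh2, chr9:108560314-108560343, plus strand, letters 110 bases before the start: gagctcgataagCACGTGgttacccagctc
Nme1, chr11:93968273-93968302, minus strand, letters 18 bases before the start: gctgcggggaacCACGTGaggccggggagc
Paics, chr5:76951087-76951116, plus strand, letters 203 bases before the start: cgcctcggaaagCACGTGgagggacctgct
A match of letters shows no binding, and Ppat, Gart, Cad and Ctps, which changed more than Paics and Impdh2, had no match in this window. Bases further before or after the starts were not searched, so a gene without a match here may hold the letters nearby. In Nme1 a second annotated start had a further match, 29 bases before it. The stretch of Atic overlaps an exon of Atic, that of Paics lies within an exon of Ppat on the other strand, and those of Impdh2 and Nme1 lie wholly in GENCODE exons of the gene itself, the latter also in Gm20390. No GENCODE exon covers the stretch of Dtymk.

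Mild acidity with IL-2 moved fewer members and by less. At pH 7 against pH 7.4, 10 of 35 fell and 3 rose, with a median of -0.17, against a background of 19% of all genes tested, 9.15% higher and 9.83% lower. Of the 27 members lower at pH 6.6, 25 had a mean at pH 7 between those at pH 7.4 and pH 6.6, as did 6 of the 7 that were higher. These members were picked by their change at pH 6.6, and the same count was not made over all genes tested. It therefore does not show a graded response particular to these enzymes.

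Nme1 was at 74.03, 69.1, 67.1, 76.9 and 69.1 CPM at pH 7 with IL-2, below every library at pH 7.4 and above every library at pH 6.6, and changed by -0.52 ± 0.13 (edgeR adjusted p = 0.00622). Atic fell by 0.43, to 139 ± 6.82 CPM, Umps by 0.34, Adsl by 0.27 and Uck2 by 0.26. Cad and Ada had changes of -0.10 ± 0.16 and -0.11 ± 0.13 that did not pass. The 3 members that rose were Samhd1, at 798, 650.0, 644, 549.6 and 553 CPM and 0.54 ± 0.11, Tk2 at 0.41 ± 0.086 and Uckl1 at 0.35 ± 0.073. For Samhd1 the mean at pH 7, 639 ± 101 CPM, was close to that at pH 6.6, 645 ± 77.5 CPM.

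These counts depend on the analysis. A fit of only the compared groups called 20 members, 5 higher and 15 lower. The calls for Gart, Ppat, Gmps, Adk and Aprt were lost when some replicates were left out. Gart was then at -0.38, -0.37, -0.37 and -0.38 without replicates 2, 3, 4 and 5, Ppat at -0.33 and -0.31 and Gmps at -0.24 and -0.23 without replicates 2 and 3, Adk at -0.42 without replicate 3 and Aprt at -0.30 without replicate 5. Without the block for the replicate number, Adk and Aprt did not pass either, at -0.46 and -0.38.

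Without IL-2, the effect of pH 6.6 was smaller and mixed. Against pH 7.4 without IL-2, 14 of 35 members fell and 10 rose, with a median of -0.13 (-0.15 to -0.072 when single replicates were left out, the latter without replicate 3), where 67% of all genes tested passed, 31.6% higher and 35.4% lower. Thus 40% of the members fell and 28.6% rose, shares near those of all genes tested. All 3 members of the step from IMP to GMP rose, as did 4 of the 5 ribonucleoside and base salvage enzymes. Of the enzymes of deamination and breakdown, Ada, Ampd2 and Samhd1 fell. Ampd3 also passed, but on 6 to 12 reads per library at pH 7.4 and 2 to 4 at pH 6.6.

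Samhd1 had the largest fall, from 1435, 2557, 2236, 2340.4 and 2124 CPM at pH 7.4 without IL-2 to 726, 812, 882, 862 and 799 CPM at pH 6.6 without IL-2, or -1.38 ± 0.12 (edgeR adjusted p = 5.00e-12). Dhodh was at 11.7, 9.74, 9.32, 9.51 and 10.9 CPM and then at 4.04, 3.43, 3.86, 4.79 and 3.80 CPM, or -1.36 ± 0.12. Ampd2 was at 52.4, 47.2, 51.7, 40.5 and 57.6 CPM and then at 28.8, 21.7, 20.5, 29.95 and 26.7 CPM, or -0.97 ± 0.13. None of these 3 genes had overlapping groups.

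Gart and Atic were the de novo purine enzymes that fell most without IL-2. Gart went from 29.6, 30.6, 28.9, 31.2 and 33.04 CPM to 16.96, 18.7, 16.1, 19.5 and 18.98 CPM, or -0.77 ± 0.12 (edgeR adjusted p = 2.72e-06), and Atic fell by 0.75. Ppat, Cad, Umps, Adsl, Paics and Nme1 did not pass, with log2 fold changes from -0.20 to -0.03, although Umps did without replicate 1, at -0.22; for Cad the 95% interval of the change ran from -0.45 to 0.20.

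Uck1 had the largest rise without IL-2, from 34.6, 38.9, 35.1, 34.7 and 51.6 CPM to 57.01, 76.6, 72.97, 89.4 and 83.9 CPM, or 0.96 ± 0.11 (edgeR adjusted p = 4.72e-09), nearly the size of its rise with IL-2. Impdh2 rose by 0.90, from 19.4, 20.8, 21.6, 20.4 and 25.2 CPM to 30.5, 43.3, 43.03, 42.4 and 42.04 CPM. Ctps rose by 0.72, from 6.37, 5.14, 3.56, 6.43 and 5.01 CPM to 8.29, 9.97, 8.63, 8.10 and 8.60 CPM, the opposite direction to its fall with IL-2. Prpsap2 rose by 0.67, from 23.9, 28.1, 26.7, 28.9 and 25.2 CPM to 35.6, 43.7, 47.1, 43.7 and 42.04 CPM. In these 4 genes the groups did not overlap. Of the 24 calls, those for Adk, Guk1, Pfas, Prps2 and Uck2 were lost in some alternatives, among them Adk at 0.26 and 0.34 without replicates 1 and 4, Prps2 at 0.12, 0.15 and 0.15 without replicates 1, 2 and 5, Guk1 at -0.26 and Pfas at -0.30 without replicate 3, and Uck2 at -0.16 without replicate 5.

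No member passed the test at pH 7 against pH 7.4 without IL-2, where 1.68% of all genes tested passed, 1.36% higher and 0.318% lower, and the median of the members was 0.00. By edgeR's quasi-likelihood test 1 member, Samhd1, had an unadjusted p under 0.05, and DESeq2 called the same 1, as lower. Samhd1 was at 1298, 1770.2, 1741, 1871 and 1556 CPM at pH 7, or -0.37 ± 0.11 (edgeR adjusted p = 0.103), with overlapping groups. It passed without replicate 1, at -0.42, and the library of replicate 1 was the lowest of its group at pH 7.4, at 1435 CPM, and at pH 7, at 1298 CPM.

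**Figure D3:**
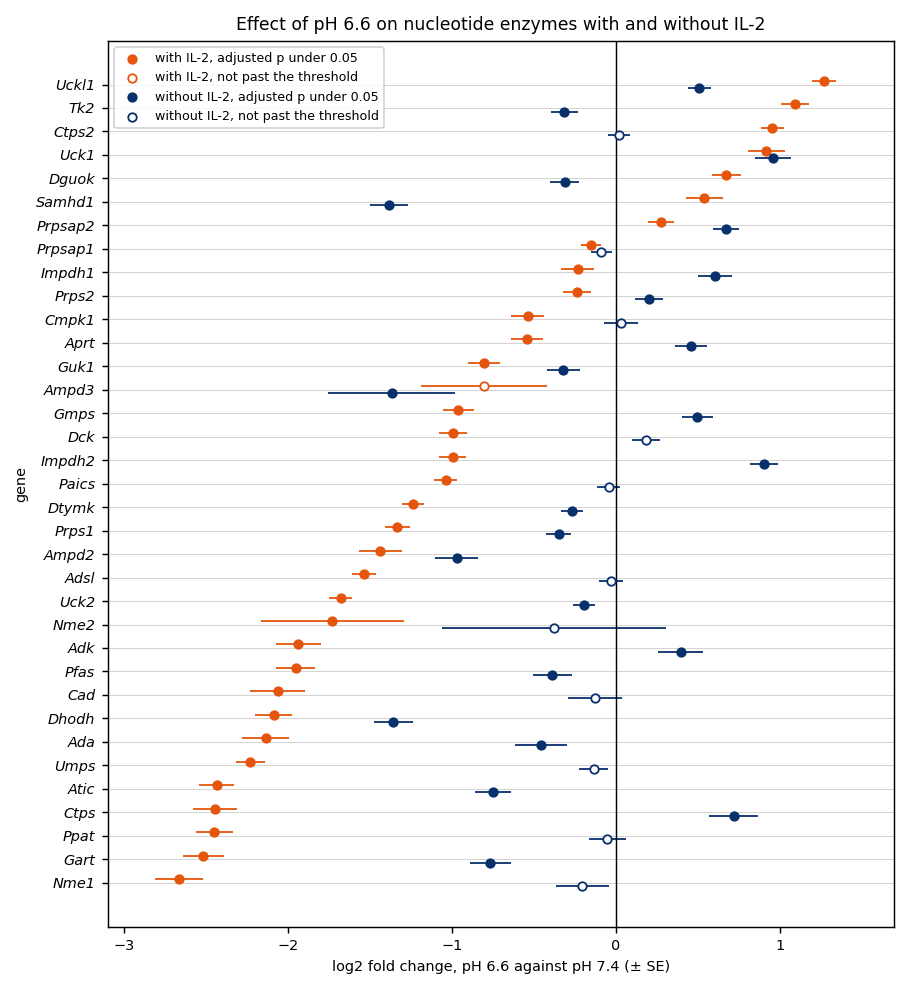
Log2 fold change at pH 6.6 against pH 7.4 (horizontal axis, ± SE) of the 35 members (rows) with IL-2 (orange) and without IL-2 (blue); filled points passed the test and open points did not. With IL-2 the points run from -2.67 for Nme1 to 1.27 for Uckl1, and without IL-2 from -1.38 for Samhd1 to 0.96 for Uck1.

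An interaction term tested whether pH 6.6 acted differently on cells given IL-2 and on cells deprived of it. It passed for 31 of the 35 members, 26 with a more negative effect with IL-2 and 5 with a more positive one, with a median of -1.0. In all genes tested 67% passed, 34.3% higher and 32.8% lower. Of the 27 members that fell with IL-2, 10 also fell without it, 7 rose and 10 did not pass. The same split was not computed for all genes that fell with IL-2.

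The largest differences were those of Ctps, at -3.16 ± 0.20, Nme1, at -2.46 ± 0.21, Ppat, at -2.40 ± 0.16, and Adk, at -2.33 ± 0.19 (edgeR adjusted p = 3.20e-15, 7.13e-12, 1.06e-14 and 2.36e-12). In each of these 4 genes the difference was negative in 5 of 5 sets of same-numbered libraries. Samhd1, at 1.92 ± 0.16, Tk2, at 1.41 ± 0.12, Dguok, at 0.99 ± 0.13, Ctps2, at 0.94 ± 0.10, and Uckl1, at 0.76 ± 0.10, had the positive differences. Samhd1, Tk2 and Dguok rose in acid with IL-2 and fell in acid without it. Uck1 showed no difference that passed, at -0.042 ± 0.16, with a 95% interval from -0.35 to 0.26. The calls for Ampd2, Guk1 and Prps2 were lost in some alternatives, with Ampd2 at -0.41, -0.32 and -0.40 without replicates 1, 2 and 4, Guk1 at -0.36 without replicate 2 and Prps2 at -0.24 and -0.28 without replicates 1 and 2.

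At neutral pH, most members were higher with IL-2 than without it; this comparison shares its libraries with the comparisons of pH. Against pH 7.4 without IL-2, 27 members were higher with IL-2 and 5 were lower, with a median of 1.14, where 80.4% of all genes tested passed, 39.3% higher and 41.1% lower. Every member of the purine pathway to IMP and of the step to GMP was higher with IL-2, as were the nucleotide kinases other than Nme2, which had 2 to 3 reads per library without IL-2.

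Ctps had the largest difference, from 6.37, 5.14, 3.56, 6.43 and 5.01 CPM without IL-2 to the 114 ± 6.49 CPM (SD, n = 5) with IL-2, 21.5-fold or 4.43 ± 0.15 (edgeR adjusted p = 8.00e-23). Nme1 was 14.8-fold higher with IL-2, from 6.56, 7.42, 5.76, 7.55 and 7.405 CPM without it, or 3.88 ± 0.16. Cad at 3.11 ± 0.17, Gart at 3.08 ± 0.13, Ppat at 3.03 ± 0.12 and Atic at 2.88 ± 0.11 followed. For all 6 the groups did not overlap.

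The 5 members that were lower with IL-2 were Samhd1, Tk2, Ctps2, Dguok and Uckl1. Samhd1 was 4.81-fold lower, or -2.27 ± 0.12 (edgeR adjusted p = 6.00e-18). Tk2 went from 73.4, 79.4, 74.4, 71.7 and 75.2 CPM without IL-2 to 24.9 ± 1.68 CPM with it, or -1.59 ± 0.086. Ctps2 was at 127, 145, 138, 136 and 129 CPM without IL-2, against 58.4 ± 5.30 CPM with it, or -1.21 ± 0.07. Prpsap2, at 0.20 ± 0.08, was the 1 call lost in some alternatives, with values of 0.16, 0.13, 0.19 and 0.18 without replicates 1, 2, 3 and 5.

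Myeloid cells are rich in Samhd1, and the CPM of 6 myeloid markers were summed in each library. Like Samhd1, this sum was higher at pH 7.4 when IL-2 was absent. It spanned 15.2 to 24.7 there and 2.30 to 5.43 when IL-2 was present. The groups at pH 6.6 spanned 7.55 to 11.9 with IL-2 and 6.83 to 12.2 when deprived of it. In cells deprived of IL-2, the median sum was higher at pH 7 than at pH 7.4, 24.2 against 19.9, with overlapping spans. Median Samhd1 was lower in the same comparison, 1741 against 2236 CPM. Libraries of pH 7 with IL-2 summed to between 5.08 and 10.2, and those of 0 h to between 4.06 and 8.02. Over the 35 libraries Itgax was at 1.67 to 24.9 CPM, Itgam reached 3.29 CPM and was at 0 in 1 library, and Cd14 was at 0.0421 to 0.827 CPM in all of them. Adgre1, Lyz2 and Csf1r were at 0 in 18, 28 and 29 libraries and reached at most 0.210, 0.286 and 0.196 CPM. The sum thus rested mainly on Itgax. Whether the Itgax reads came from myeloid cells or from the CTLs themselves was not tested, nor was the part of myeloid cells in the Samhd1 values.

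At pH 7, 26 members were higher with IL-2 and 7 lower, with a median of 1.08, where 77.2% of all genes tested passed, 37.6% higher and 39.5% lower. The call for Uck1 among the 7 was lost without replicates 4 and 5, at -0.21 and -0.14. At pH 6.6, 14 were higher with IL-2 and 5 lower, with a median of 0.18, where 23.7% of all genes tested passed, 13.2% higher and 10.6% lower.

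At pH 6.6 the largest differences with IL-2 were those of Nme1, at 1.42 ± 0.15, Gart, at 1.33 ± 0.13, Ctps, at 1.26 ± 0.14, Atic, at 1.20 ± 0.11, and Cad, at 1.17 ± 0.17 (edgeR adjusted p = 1.78e-08, 1.03e-09, 2.28e-08, 4.58e-10 and 2.86e-06). Ctps was at 8.29, 9.97, 8.63, 8.10 and 8.60 CPM without IL-2 and at 21.02 ± 4.59 CPM with it, without overlap. Adk was lower with IL-2 in acid, at -0.65 ± 0.14, the opposite side to its difference of 1.68 ± 0.14 at pH 7.4. Dck, Impdh2, Samhd1 and Uckl1 were near the threshold and lost their calls in some alternatives, Uckl1 without any 1 of the 5 replicates, at -0.21 to -0.17, Samhd1 without replicates 2 to 5, at -0.36 to -0.32, Dck without replicates 1 and 2, at -0.16 and -0.23, and Impdh2 without replicates 4 and 5, at 0.22 and 0.23.

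Cells in acid with IL-2 were next set beside neutral cells deprived of IL-2. Of the 35 members, 18 were higher and 10 lower at pH 6.6 with IL-2 than at pH 7.4 without it, with a median of 0.26, where 64.4% of all genes tested passed, 30.4% higher and 34.1% lower. Of the 27 members that fell in acid with IL-2, 15 were still above the neutral level without IL-2, 5 were below it and 7 did not pass. How all genes that fell in acid with IL-2 divide in this way was not computed.

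Ctps, at 21.02 ± 4.59 CPM in acid with IL-2 against 5.30 ± 1.18 CPM, was 3.95-fold higher, or 1.98 ± 0.14. Nme1 at 1.22 ± 0.15, Impdh2 at 1.16 ± 0.084 and Cad at 1.05 ± 0.17 were also higher. Samhd1, at -1.73 ± 0.12, and Dhodh, at -0.51 ± 0.11, were lower. Adk, Pfas, Dck, Paics, Dtymk, Cmpk1 and Nme2 did not pass, and for Paics the 95% interval was -0.13 to 0.15. Of the 28 calls, 7 were lost in some alternatives, all of them when single replicates were left out. These were Ada at 0.33, 0.33 and 0.41 without replicates 1, 4 and 5, Ampd2 at -0.31, -0.22 and -0.31 without replicates 2, 3 and 5, Ampd3 at -0.95 and -1.02 without replicates 1 and 5, Guk1 at -0.24, -0.17, -0.17 and -0.21 without replicates 1, 2, 3 and 5, Prps1 at -0.16, -0.16, -0.17 and -0.19 without replicates 1 to 4, Prpsap1 at -0.16 without replicate 2, and Umps at 0.17, 0.20 and 0.23 without replicates 1, 4 and 5. Adk passed without replicate 1, at -0.35.

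The 0 h group showed where the members started. From 0 h to 24 h at pH 7.4 with IL-2, 20 members were higher and 5 lower, with a median of 0.64, where 59.9% of all genes tested passed, 29% higher and 30.9% lower. When IL-2 was withdrawn for 24 h at pH 7.4, 7 were higher and 23 lower, with a median of -0.84, where 75.2% passed, 36.9% higher and 38.3% lower. At pH 6.6 with IL-2, 8 were higher and 22 lower, with a median of -0.52, where 68.5% passed, 30.5% higher and 38% lower. These 3 comparisons share the 0 h libraries.

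Leaving out single replicates ended a few of these calls. With IL-2 at pH 7.4, Aprt was lost without replicates 1, 2, 3 and 5, at -0.21, -0.24, -0.26 and -0.18. On withdrawal, Ampd3 was lost without replicates 1, 3 and 5, at 0.87, 0.60 and 0.76, and Dtymk without replicates 1, 2, 3 and 5, at -0.14, -0.15, -0.17 and -0.13. At pH 6.6 with IL-2, Cmpk1 was lost without replicates 2, 4 and 5, at -0.26, -0.23 and -0.24, Dguok without replicates 2, 3 and 4, at 0.22, 0.18 and 0.18, and Nme2 without replicate 2, at -1.02.

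Dck had the largest rise from 0 h at pH 7.4 with IL-2, from 46.8, 56.4, 63.3, 44.6 and 50.7 CPM to 159 ± 17.1 CPM (SD, n = 5), or 1.61 ± 0.087 (edgeR adjusted p = 4.22e-16). It was also higher than at 0 h when IL-2 was withdrawn, at 0.69 ± 0.085. Ctps, at 37.4, 55.6, 55.4, 39.4 and 46.1 CPM at 0 h, rose by 1.28 with IL-2 at pH 7.4 and fell by 3.14 without it and by 1.16 at pH 6.6 with IL-2. Samhd1, at 480.5, 504, 569, 468 and 439 CPM at 0 h, rose by 2.11 on withdrawal. Nme1, at 49.4, 50.5, 52.3, 44.2 and 72.98 CPM at 0 h, rose by 0.93 with IL-2 at pH 7.4 and fell by 2.96 on withdrawal and by 1.74 in acid with IL-2.

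**Figure D4:**
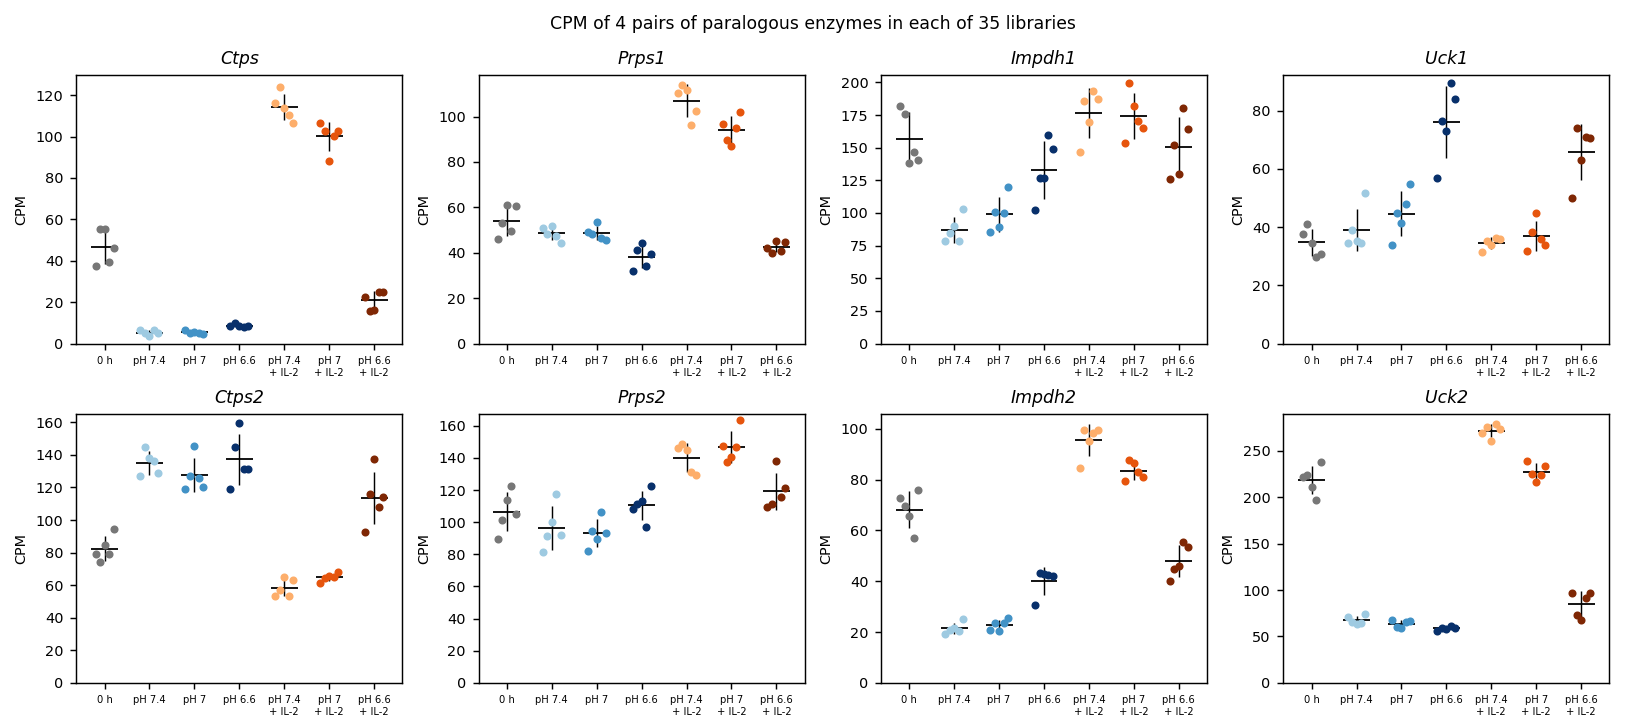
CPM (vertical axes, from 0) of 4 pairs of paralogs, one above the other, in each of the 35 libraries by group; points are libraries, horizontal bars are means and vertical bars ± SD (n = 5). Ctps lies between 88.1 and 124 CPM at pH 7.4 and pH 7 with IL-2, where Ctps2 is at its lowest, and Uck1 is highest at pH 6.6, where Uck2 is at most 97.3 CPM.

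Enzymes that serve the same step were compared directly. For 7 pairs of paralogs, the log2 change of one was subtracted from that of the other in each of the 5 sets of same-numbered libraries, for acid with IL-2 and for IL-2 at pH 7.4, and tested by an exact two-sided sign-flip test. With 5 sets the smallest p this test can give is 0.0625, so it cannot pass 0.05, and the smallest value after adjustment over the 14 tests was 0.0729.

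Ctps2 minus Ctps was 3.42 ± 0.48 (SD, n = 5) for pH 6.6 against pH 7.4 with IL-2 and -5.65 ± 0.31 for IL-2 at pH 7.4, each with the same sign in 5 of 5 (exact sign-flip p = 0.0625 for both). Uck2 minus Uck1 was -2.60 ± 0.34 in acid and 2.16 ± 0.15 with IL-2. Prps2 minus Prps1 was 1.09 ± 0.096 in acid and -0.59 ± 0.22 with IL-2, and Impdh2 minus Impdh1 was -0.76 ± 0.093 and 1.13 ± 0.11. All of these kept their sign in 5 of 5 sets.

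Prpsap2 minus Prpsap1 was 0.43 ± 0.071 in acid, with the same sign in 5 of 5, and 0.24 ± 0.16 with IL-2, in 4 of 5 (exact sign-flip p = 0.125). Nme2 minus Nme1 was 1.28 ± 0.69 in acid and -2.17 ± 0.33 with IL-2, but Nme2 rested on at most 15 reads, and log2 CPM computed with a prior count of 2 shrink the changes of such a gene. The same holds for Ampd3 minus Ampd2, at 0.85 ± 0.92 in acid, in 4 of 5 sets (exact sign-flip p = 0.125), and -1.26 ± 0.40 with IL-2.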

How the data were processed

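Per the labels, RNA was taken after removal of dead cells and made into stranded poly(A) libraries (Illumina TruSeq stranded mRNA). The authors deposited raw read counts per gene for each library. The submitters' processing notes name cutadapt 1.8, STAR 2.5.2b and HTSeq 0.6.1 and the build GRCm38. The annotation release, the strand setting and the read length are not given in the sources used here. HTSeq leaves out reads that align to several places, so genes with close copies can be undercounted.

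The count tables were joined by Ensembl gene identifier, and the rows that name no gene were left out; set against the reads assigned to genes plus those of these rows, they were 32.8 to 48.3% for alignments to several places, 2.58 to 11.1% for no gene and 0.871 to 0.997% for reads shared by several genes. Symbols came from a table of Ensembl identifiers, exon lengths and the share of 50-base windows unique to a gene from GENCODE M21, and promoters from RefSeq. The windows stand in for the read length, which is not known. Counts were fitted in R 4.3.3 with edgeR 4.0.16, using TMM scaling, a filter on low counts (filterByExpr, minimum count 10), a term for each of the 7 groups, a block for the replicate number and robust quasi-likelihood tests of 12 comparisons, each adjusted by Benjamini-Hochberg over the 13819 genes tested. The SE of a log2 fold change was its size divided by the square root of F, and 95% intervals were computed from the same fit. DESeq2 1.42.0 was an alternative. The members, roles and other lists were chosen with earlier results of these data known. All members were to be named, with values in every library for the 4 largest falls and rises at pH 6.6 with and without IL-2 (where the mean log2 CPM was 3 or more) and for paralog pairs; the other values in every library were chosen after they were seen. In simulated counts for pH 6.6 against pH 7.4 with IL-2, over 13423 genes, 45 of 49 changes of 1 on the log2 scale and 34 of 50 of 0.5 were found, and 5 of 13227 unchanged genes were called. The simulation changed few genes, only in the group at pH 6.6 with IL-2, and had no replicate effect. In the data 76.3% of genes passed in this comparison, so the simulated rates may not hold there.

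The labels number the replicates 1 to 5 in every group. Deviations from the group means were correlated between same-numbered libraries, above 0.1 in 5 of 5 pairs of the main comparison and in 95 of 105 pairs in all (median 0.27, against -0.07 for libraries with different numbers). The pairing rests on the numbers in the titles and on these correlations, and in 3 comparisons not every pair was above 0.1. No label says that replicates came from separate cultures or animals, and p-values measure the spread between these samples. Of the 70 pairs of libraries within a group, none agreed within counting noise.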

Additional observations from a re-analysis of the deposited data

Results flagged for a closer look

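The effect of pH 6.6 differed between cells with and without IL-2 for 31 of the 35 members by the interaction test, which 67% of all genes tested also passed (34.3% higher, 32.8% lower). In the pyrimidine pathway and the supply of PRPP, the log2 difference was -1.94 for Cad, -0.73 for Dhodh, -2.10 for Umps, -3.16 for Ctps, 0.94 for Ctps2, -0.99 for Prps1, -0.44 for Prps2 and -0.40 for Prpsap2. In the purine pathway it was -2.40 for Ppat, -1.75 for Gart, -1.57 for Pfas, -1.0 for Paics, -1.51 for Adsl, -1.69 for Atic, -0.84 for Impdh1, -1.90 for Impdh2 and -1.46 for Gmps. Among the kinases and salvage enzymes it was -2.46 for Nme1, -0.57 for Cmpk1, -0.97 for Dtymk, -0.48 for Guk1, -1.49 for Uck2, 0.76 for Uckl1, -1.0 for Aprt, -2.33 for Adk, 1.41 for Tk2, -1.18 for Dck and 0.99 for Dguok. Of the remaining enzymes, Ada was at -1.68, Ampd2 at -0.47 and Samhd1 at 1.92.

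In 14 of 245 combinations of member and group, 1 library lay far from the other 4 by Dixon's test, where chance alone flags about 1 in 20. At pH 7 with IL-2 these were Dhodh at 33.1 CPM in replicate 1, and Prpsap1 at 53.7 and Adsl at 112 CPM in replicate 2. In acid without IL-2 they were Paics at 167, Impdh2 at 30.5 and Dtymk at 37.5 CPM in replicate 1 and Ctps at 9.97 CPM in replicate 2. At pH 7 without IL-2 they were Ada at 3.48 CPM in replicate 1, Atic at 20.8 in replicate 2 and Gmps at 69.4 in replicate 5. The others were Prpsap2 at 25.6 CPM in replicate 1 at pH 7.4 with IL-2, Uck1 at 51.6 in replicate 5 at pH 7.4 without IL-2, Nme1 at 73.0 in replicate 5 at 0 h and Nme2 at 0.333 in replicate 5 at pH 6.6 with IL-2.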

How the results depend on the processing

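No call for a member changed its direction under the alternatives run. The median of the members at pH 7 without IL-2, 0.0026, lay so near 0 that its sign did change, to -0.0050 with scaling by relative log expression and from -0.020 to 0.018 without single replicates. A fit of only the compared groups called 20 members at pH 7 with IL-2 and 1, Samhd1, at pH 7 without IL-2; DESeq2 also called 1 at pH 7 without IL-2, and leaving out single replicates gave 0 to 1. With only the 23 members that had at least 95% unique 50-base windows, the median was -0.13 at pH 7 with IL-2 and 1.33 for IL-2 at pH 7.4, 18 members passed for pH 6.6 with IL-2 against pH 7.4 without it and 19 for pH 6.6 with IL-2 against 0 h; there are fewer members in these counts by construction. Leaving out single replicates moved the median from -1.08 to -0.94 at pH 6.6 with IL-2, from -0.19 to -0.14 at pH 7 with IL-2, from 1.05 to 1.17 for IL-2 at pH 7.4 and from -0.87 to -0.70 for withdrawal of IL-2 against 0 h. Without the block for the replicate number, 33, 11, 22 and 0 members passed at pH 6.6 and pH 7 with IL-2 and at pH 6.6 and pH 7 without it, 32, 32 and 16 for IL-2 at pH 7.4, pH 7 and pH 6.6, 31 for the interaction, 27 for pH 6.6 with IL-2 against pH 7.4 without it and 24, 30 and 29 for the 3 comparisons with 0 h. The pairing thus decided 12 calls: Impdh1 at pH 6.6 with IL-2, Adk and Aprt at pH 7 with IL-2, Adk and Prps2 at pH 6.6 without IL-2, Uck1 for IL-2 at pH 7, Dck, Impdh2 and Samhd1 for IL-2 at pH 6.6, Guk1 for acid with IL-2 against withdrawal, and Aprt and Dguok against 0 h at pH 7.4 and pH 6.6 with IL-2; it changed no other call. Scaling by relative log expression called 31 at pH 6.6 with IL-2, 7 higher and 24 lower. Against 0 h, 24 of 25, 28 of 30 and 26 of 30 calls held in every alternative. The depth left Nme2 and Ampd3 with at most 15 reads in any library.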

Other observations

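A further list of 46 genes of nucleotide metabolism that are not members, among them ribonucleotide reductase, thymidylate synthase, adenylate kinases, nucleotidases and nucleoside transporters, gave 41 genes that could be tested. At pH 6.6 against pH 7.4 with IL-2, 28 of these fell and 5 rose, with a median log2 fold change of -1.09, against the 40.9% lower and 35.4% higher among all genes tested. Without IL-2, 16 fell and 14 rose, or 39.0 and 34.1% of the 41, with a median of -0.10, against 35.4% lower and 31.6% higher among all genes tested, so that these shares were near the background. With IL-2 at pH 7.4, 27 were higher and 8 lower than without it, with a median of 1.09, against 39.3% higher and 41.1% lower among all genes tested.

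By the same rule of size, the falls at pH 6.6 with IL-2 were led by Ak4, a mitochondrial adenylate kinase, at -3.56 ± 0.36, Tyms, the thymidylate synthase, at -3.39 ± 0.15, and Dctd, the dCMP deaminase, at -2.84 ± 0.20. Rises were led by Nt5e, the ectonucleotidase CD73 that makes adenosine outside the cell, at 2.76 ± 0.10, Adssl1, an adenylosuccinate synthase, at 1.67 ± 0.10, and Rrm2b, the p53-inducible small subunit of ribonucleotide reductase, at 0.84 ± 0.10 (edgeR adjusted p from 2.75e-21 to 8.92e-09).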
